A study of Homo sapiens and Mus musculus with 9 samples.

Results

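Sites of RNA recovered from LS174T cells, a human colorectal adenocarcinoma line, were compared between 2 deposited peak lists whose names read wild-type IP and PXR knockout IP. The WT-named list held 2103 peaks and the KO-named list 46, together 2149 of the 5884 peaks in the 4 lists of the series. All peaks of both lists were taken as deposited, and a peak was called shared where it overlapped a peak of the other list by at least 1 bp on the same strand. The record names 3 LS174T samples, each a single library: a wild-type input with no antibody, a wild-type immunoprecipitate (IP) made with an antibody to PXR, and an anti-PXR IP from PXR knockout cells. It ties the WT-named list to the wild-type input and the KO-named list to the wild-type IP, whereas the peak names inside the files read WT and KO. The knockout IP has no list assigned to it, and whether the knockout line is 1 clone, or how it was made, was not given in the sources used here. Each list is therefore named by what is written in it, and the comparison can be read as wild type against knockout or as input against IP, with no genotype direction drawn.

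The pregnane X receptor (PXR, gene NR1I2) is a nuclear receptor of liver and gut that binds drugs, steroids and bile acids and switches on genes of drug metabolism and transport. In eCLIP, UV light joins a protein to the RNA it touches, RNase trims the RNA, the protein is pulled down with an antibody, and the RNA left on it is sequenced. An input library skips the pull-down and reads the crosslinked, trimmed RNA as a whole, so abundant RNAs lead it. RNase P and RNase MRP are ribonucleoproteins that process precursor tRNA and rRNA, and TERC is the template RNA of telomerase. Messenger RNAs of ribosomal proteins begin with a run of pyrimidines, the 5′ terminal oligopyrimidine tract, through which their translation is regulated.

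A few sequences show where peaks of the 2 lists stood. RPLP1, which encodes an acidic ribosomal stalk protein, had a peak at its first bases in both lists. RPLP2, RPS12 and RPS16 (ribosomal proteins) and TPT1 (translationally controlled tumor protein) had 1 at theirs in the WT-named list only. TMSB10 (thymosin, an actin-binding peptide) and SLC2A1 (the glucose transporter GLUT1) had start peaks without a pyrimidine run. The first 24 bases of each gene follow, 5′ to 3′, from RefSeq (GRCh38.p14), with the unbroken run of C and T from base 1 in capitals.
RPLP1: CCCCTTTCCTCagctgccgccaag
RPLP2: CCTTTTCCTCCCTgtcgccaccga
RPS12: CTCTTTCCCTgccgccgccgagtc
RPS16: CCTTTTCCggttgcggcgccgcgc
TPT1: CTTTTCCgcccgctcccccctccc
TMSB10: gtttcttgctgcagcaacgcgagt
SLC2A1: aagaggcaagaggtagcaacagcg

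Of the small RNA sites in both lists, the one with the highest ratio covered the whole MIR4449 hairpin, which lies within the lncRNA gene DANCR on the plus strand of chromosome 4, bases 52712682 to 52712747. The hairpin is printed with the mature miRNA in capitals, and the mature miRNA of 22 bases with its seed, bases 2 to 8, in capitals.
MIR4449 hairpin: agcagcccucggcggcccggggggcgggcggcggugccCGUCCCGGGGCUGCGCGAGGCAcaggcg
hsa-miR-4449: cGUCCCGGggcugcgcgaggca

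Peak heights are given below as reads at the summit, recovered from the deposited fold and p-value of each peak. Their median was 11 in the WT-named list (range 3 to 76143) and 19 in the KO-named list (range 4 to 1984), and they summed to 183887 and 5417. Values per replicate were not part of the lists, which leaves ratios without a replicate error, and intervals are 95% intervals for counting error only. The WT-named list had peaks in 8 of 12 colon epithelium markers and in none of the hepatocyte, immune, fibroblast and endothelial markers searched, and the KO-named list had none in any of these. Of all 20043 nuclear protein-coding genes in the table used, 6.43% had a WT-named and 0.0848% a KO-named peak. NR1I2 had no peak in either list or within 5000 bp, and neither list had a peak in any of the 20 genes of PXR and its transcription targets. A gene without a called peak is not a gene without RNA, so this does not check either label.

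Nearly every KO-named site was also a WT-named site, and few WT-named sites were KO-named sites. Of the 46 KO-named peaks, 44 (95.7%, interval 85.2 to 99.5%) had a WT-named partner. Of the 2103 WT-named peaks, 45 (2.14%, interval 1.56 to 2.85%) overlapped a KO-named peak, since a wide KO-named peak on the mitochondrial rRNAs covered 2 of them. The sites in both lists included scaffold sites, the mitochondrial rRNAs, RPPH1, RMRP, TERC and DANCR among noncoding RNAs, and messenger RNAs of abundant proteins such as GAPDH, ACTG1, KRT8, TMSB10 and RPLP1.

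WT-named sites with a partner were mostly deep ones. A partner was found for 1 of 884 WT-named peaks with under 10 reads (0.113%) and for 5 of 934 with 10 to 29 reads (0.535%). It was found for 13 of 209 with 30 to 99 reads (6.22%, interval 3.35 to 10.4%) and for 9 of 49 with 100 to 299 (18.4%, interval 8.76 to 32.0%). Of the 27 WT-named peaks with at least 300 reads, 17 had a partner (63.0%, interval 42.4 to 80.6%). The share therefore climbed at each step of depth, and most of the list lay in the 2 shallowest steps. Among the deepest peaks, all 6 mitochondrial ones, 4 of 8 in small RNAs and 1 of 5 in protein-coding genes had a partner. At 100 to 299 reads the partners were mostly in protein-coding genes, 7 of 22, against 0 of 13 in lncRNA genes.

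**Figure D1:**
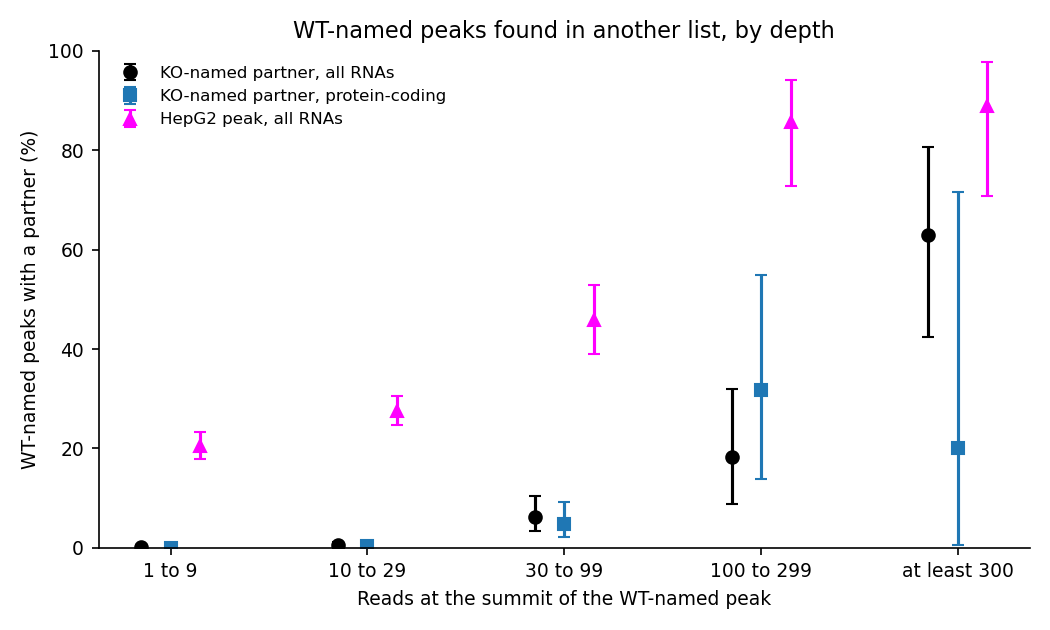
Share of WT-named peaks that overlap a KO-named peak (all RNAs, black; protein-coding genes, blue) or a HepG2 peak (pink) against the reads at the summit, with Clopper-Pearson 95% intervals. The share with a KO-named partner was 0.113% below 10 reads and 63.0% at 300 reads or more.

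By kind of RNA, the 2 lists had different make-ups. Protein-coding genes held 1697 of the WT-named peaks (80.7%) and 19 of the KO-named peaks (41.3%, interval 27.0 to 56.8%). Mitochondrial sites were 13 peaks (0.618%) and 7 peaks (15.2%), pseudogenes 127 (6.04%) and 6 (13.0%), and small RNA genes 14 (0.666%) and 3 (6.52%), WT-named first. Counted in reads instead of peaks, scaffold sites took 42.5% and 37.1% of the summit reads, mitochondrial sites 24.9% and 42.8%, protein-coding genes 20.1% and 8.68%, and small RNA genes 6.26% and 5.10%. A KO-named partner was found for 7 of 13 WT-named mitochondrial peaks (53.8%), 4 of 14 in small RNA genes (28.6%), 3 of 14 on scaffolds (21.4%), 5 of 127 in pseudogenes (3.94%), 2 of 135 in lncRNA genes (1.48%) and 19 of 1697 in protein-coding genes (1.12%). Genes were assigned without strand, and 62 of the 97 WT-named lncRNA peaks with a known strand lay antisense to the lncRNA gene. The classes with high shares were also the deep ones, with median WT-named reads of 397 in small RNA genes and 288 on the mitochondrial genome against 11 in protein-coding genes, and the part of depth in these shares was not tested.

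Among the 44 shared sites, WT-named reads were at least 2 times the KO-named reads at 37 (84.1%), and the reverse held at none (0%). The median ratio of WT-named to KO-named reads was 7.48, but as a share of each list's summed summit reads it was 0.220, below 1. The same scaffold site led both sums, with 76143 of the 183887 WT-named and 1984 of the 5417 KO-named reads. A common factor between the lists leaves the order of the ratios in place. Counting intervals lay above 1 at 38 sites, covered 1 at 5 and lay below 1 at ZNF713.

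Small RNA genes and scaffold sites had the highest median ratios, and protein-coding genes and pseudogenes the lowest. A site entered these ratios only if it was called in the KO-named list, where peaks held at least 4 reads. A shallow WT-named site could therefore enter only at a low ratio. Small RNA sites held 464 or more WT-named reads, while RPLP2 (28), TPT1 (26) and GAPDHP40 (21) held few. The part of this in the class order was not tested. The class of a shared site was set by its WT-named summit. This put the DANCR site, a lncRNA site by its KO-named summit, among the small RNA sites, where it had the highest ratio. The median was 67.9 at the 4 small RNA sites (range 15.1 to 119), 38.4 at 3 scaffold sites, 16.2 at 6 mitochondrial sites (range 3.51 to 30.7) and 13.0 at 2 lncRNA sites. It was 8.55 at 5 sites outside annotated genes, 3.58 at 19 sites in protein-coding genes (range 0.585 to 470) and 3.0 at 5 in pseudogenes (range 1.40 to 65.5). As shares of each list's reads, the medians for small RNAs (2.00) and scaffolds (1.13) stayed above 1, and those for mitochondrial sites (0.477), lncRNA genes (0.384), sites outside genes (0.252), protein-coding genes (0.105) and pseudogenes (0.0884) lay below 1. Every small RNA site thus had a higher ratio than every protein-coding site but SYCP2L.

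**Figure D2:**
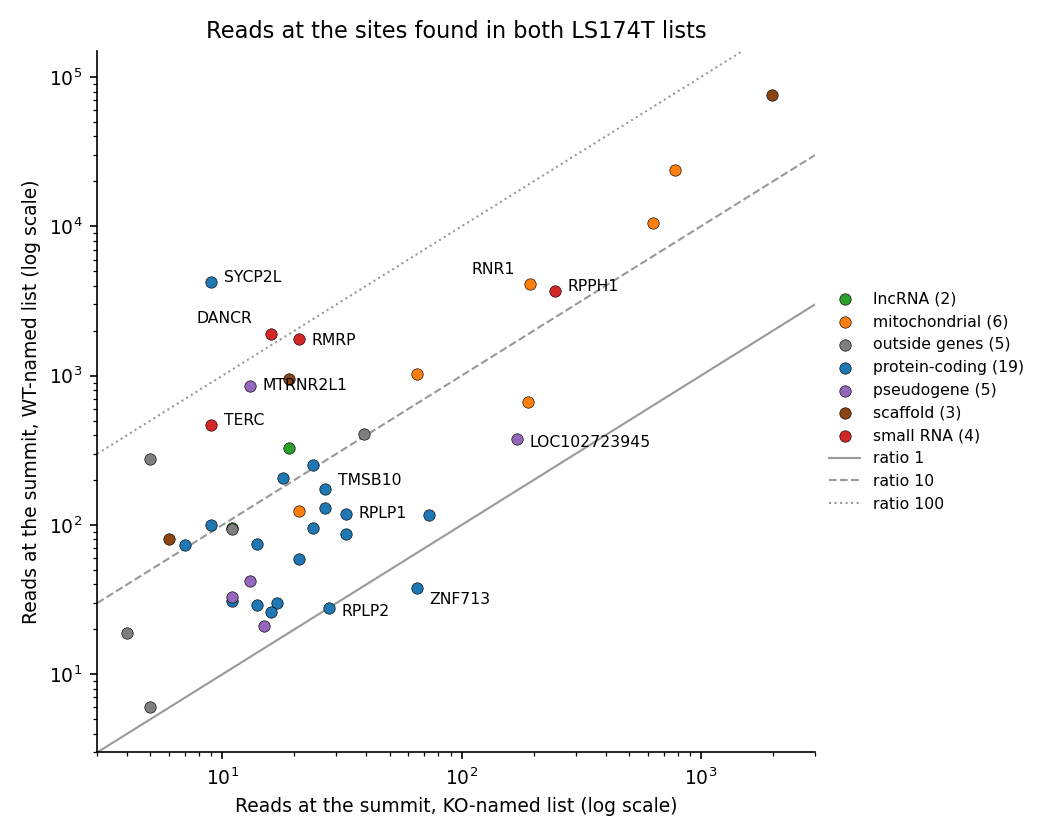
Reads at the summit of each of the 44 shared sites in the WT-named list against the KO-named list, on log axes, colored by kind of RNA, with lines at ratios of 1, 10 and 100. RMRP, DANCR, TERC and SYCP2L lie far above most protein-coding sites, RPLP2 lies on the line of equal reads and ZNF713 below it.

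The RNAs of RNase P, RNase MRP and telomerase all had a peak in both lists, 3 of 3 genes. RPPH1, the RNA of RNase P, held 3718 reads in the WT-named and 246 in the KO-named list, a ratio of 15.1 (interval 13.3 to 17.3), on the minus strand of chromosome 14, 20343011 to 20343406 in the KO-named list. RMRP, the RNA of RNase MRP, held 1768 and 21 reads, a ratio of 84.2 (interval 54.9 to 136), at 35657774 to 35658018 on the minus strand of chromosome 9. TERC held 464 and 9 reads, a ratio of 51.6 (interval 26.9 to 113), at 169764682 to 169764881 on the minus strand of chromosome 3. The TERC summits of the lists lay 133 bp apart, so its ratio compares reads at different bases. RPPH1 was thus the fourth-ranked shared site by KO-named reads and RMRP and TERC stood well below it, although all of them were deep in the WT-named list.

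The peaks on RPPH1 and RMRP began at the 5′ end of the RNA in both lists, 0 and 5 bases into RPPH1 (WT-named first) and 1 base into RMRP in both. On TERC the WT-named peak began 6 bases into the RNA and the KO-named peak 179 bases in. Peak edges include the 200 bp to which the caller extended each read, so a 3′ edge is not a read end. None of the 12 RNAs of the 7SL, 7SK, Y and vault group and none of the 12 spliceosomal snRNAs had a peak in either list. The share over all small RNA genes was not computed, so these counts set no contrast with RPPH1, RMRP and TERC. Of the 11 protein subunits of RNase P and RNase MRP, RPP25L alone had a WT-named peak, with 6 reads, and none a KO-named one. Over all nuclear protein-coding genes the shares with a peak were 6.43% (WT-named) and 0.0848% (KO-named).

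The site at MIR4449 and DANCR held 1909 reads in the WT-named list and 16 in the KO-named list, a ratio of 119 (interval 73.3 to 209). The WT-named peak ran from 52712619 to 52712915 and the KO-named peak from 52712634 to 52712864, so both covered the hairpin printed above. Its WT-named summit fell inside the hairpin and its KO-named summit in DANCR beside it. DANCR also hosts this miRNA, and the reads cannot be told apart between the miRNA precursor and the host transcript.

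Mitochondrial RNAs led both lists together with a scaffold site. The large rRNA RNR2 held 23957 and 780 reads at a first site (ratio 30.7, interval 28.6 to 33.0) and 10515 and 634 at a second (ratio 16.6, interval 15.3 to 18.0), WT-named first. The small rRNA RNR1 held 4093 and 193 reads, a ratio of 21.2. The site by TRNL2 and the start of ND5, a subunit of respiratory complex I, held 1029 and 65 reads, a ratio of 15.8. Lower ratios were found at the site by TRNG and ND3, with 664 and 189 reads (3.51, interval 2.98 to 4.15), and at the site in CYTB, with 124 and 21 (5.90, interval 3.70 to 9.88). CYTB encodes cytochrome b on the other strand, so the summit of this last site was antisense to it. On their own strand its peaks began at bases 15994 (KO-named) and 15988 (WT-named), beyond the end of CYTB at 15887. The RNA at this site is therefore not settled. Ratios on the mitochondrial genome thus spanned 3.51 to 30.7 with intervals that do not overlap between RNR2 and ND3.

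The deepest site of both lists lay on the unlocalized chromosome 22 scaffold KI270733v1, 135087 to 135310, with 76143 and 1984 reads, a ratio of 38.4 (interval 36.7 to 40.1). Another site on it, at 168847 to 169165, held 957 and 19 reads, a ratio of 50.4 (interval 32.1 to 84.0). Peaks on scaffolds were assigned no gene here, so which RNA these sites belong to was not examined.

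Protein-coding sites shared by the lists were mainly messenger RNAs of abundant proteins, and the peaks lay in the sense direction at all 16 of the 19 for which the gene's strand was known. In the WT-named list 1313 of 1384 protein-coding peaks with a known strand were sense (94.9%, interval 93.6 to 96.0%). Of 1288 protein-coding genes with a WT-named peak, 17 (1.32%) also had a KO-named peak. These were 14 of the 274 genes with several WT-named peaks (5.11%, interval 2.82 to 8.42%) and 3 of the 1014 genes with a single peak (0.296%, interval 0.0611 to 0.862%). The latter were SYCP2L, FZD6 and ZNF713, at each of which nearly all reads of the surrounding 10000 bp lay in the peak.

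Ribosomal protein genes had low ratios at their shared sites, where a shallow WT-named site can appear only at a low ratio. Of 89 such genes, 53 had a WT-named peak (81 peaks, with 4 to 118 reads and a median of 21), and 5 had a KO-named one. Over all nuclear protein-coding genes these shares were 6.43% and 0.0848%. RPLP1 held 118 reads in the WT-named and 33 in the KO-named list, a ratio of 3.58 (interval 2.41 to 5.43). RPLP2, the partner of RPLP1 in the ribosomal stalk, held 28 reads in both, a ratio of 1.0 (interval 0.571 to 1.75). RPS14 held 30 and 17 reads and RPS19 31 and 11, both proteins of the small subunit, with ratios of 1.76 and 2.82. The intervals of RPLP2 and RPS14 covered 1, and as shares of each list's reads the ratios of these 4 genes would lie below 1.

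RPLP1 was the ribosomal protein gene with a start peak in both lists. WT-named peaks reached the first 50 bases of 155 genes, 13 of them ribosomal protein genes, and KO-named partners existed for RPLP1 and SLC2A1. Both RPLP1 peaks began at base 7 of the gene, chromosome 15 at 69452824, inside the pyrimidine run shown above, and the KO-named SLC2A1 peak began downstream of the first 50 bases. The 13 ribosomal protein peaks began at bases 1 to 32, with a median of 6. A run of at least 5 pyrimidines (C or T) from base 1 on the gene's own strand was found in 12 of these 13 genes (92.3%), in 20 of the other 142 genes with a start peak (14.1%), in 49 of the 71 ribosomal protein genes of the RefSeq start table (69.0%) and in 1064 of all its 15843 protein-coding genes (6.72%).

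The other start peaks printed above with a pyrimidine run had no partner. They held 57 reads in RPS12, 50 in RPS16, 42 in TPT1 and 25 in RPLP2. In RPLP2 and TPT1 the KO-named peak lay further into the gene. The KO-named RPLP2 peak (810245 to 810464 on chromosome 11, plus strand) began 278 bases into the gene, while the deepest WT-named RPLP2 peak, with 53 reads near the 3′ end, had no partner. TPT1 had WT-named peaks of 42, 29, 26 and 26 reads from 5′ to 3′, and its partner, with 16 reads, lay at the most 3′ of them.

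Cytoskeletal genes had 44 WT-named peaks in 20 of 30 genes, against 6.43% of all protein-coding genes, and 5 KO-named peaks in ACTG1, KRT8, KRT19 and TMSB10. KRT8, an epithelial keratin, held 205 and 18 reads, a ratio of 11.4 (interval 7.03 to 19.6). TMSB10 held 173 and 27 reads at its 3′ part, a ratio of 6.41 (interval 4.25 to 10.0). KRT19, a keratin of simple epithelia, held 75 and 14, a ratio of 5.36 (interval 3.0 to 10.3), with summits 105 bp apart. Ratios also differed within a gene. In ACTG1, cytoplasmic gamma actin, the 3′ site held 130 and 27 reads (4.81, interval 3.16 to 7.58), and the 5′ site 117 and 73 (1.60, interval 1.19 to 2.18), so the site that was deeper in the KO-named list was not the deeper one in the WT-named list. The summits of the lists lay 140 bp apart at the 3′ site and 5 bp apart at the 5′ site, so the 3′ ratio compares reads at different bases.

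GAPDH, a glycolytic enzyme, held 251 and 24 reads at its 3′ site (10.5, interval 6.87 to 16.6) and 87 and 33 at an upstream site (2.64, interval 1.75 to 4.06), with intervals that do not overlap. The summits of the lists lay 106 bp apart at the 3′ site and 162 bp apart at the upstream one. These ratios therefore compare reads at different bases, which the intervals do not cover. ALDOA, the glycolytic enzyme aldolase, had 5 WT-named peaks with 40 to 95 reads, and the deepest, at the 3′ end, had a partner (95 and 24 reads, ratio 3.96). SLC2A1 had 6 WT-named peaks, and the one at the gene start was shared, with 100 and 9 reads, a ratio of 11.1 (interval 5.62 to 25.0). FTL, ferritin light chain, held 59 and 21 reads at its 3′ site (2.81), with summits 84 bp apart. The deeper WT-named start peak of FTL, with 73 reads, had no partner.

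**Figure D3:**
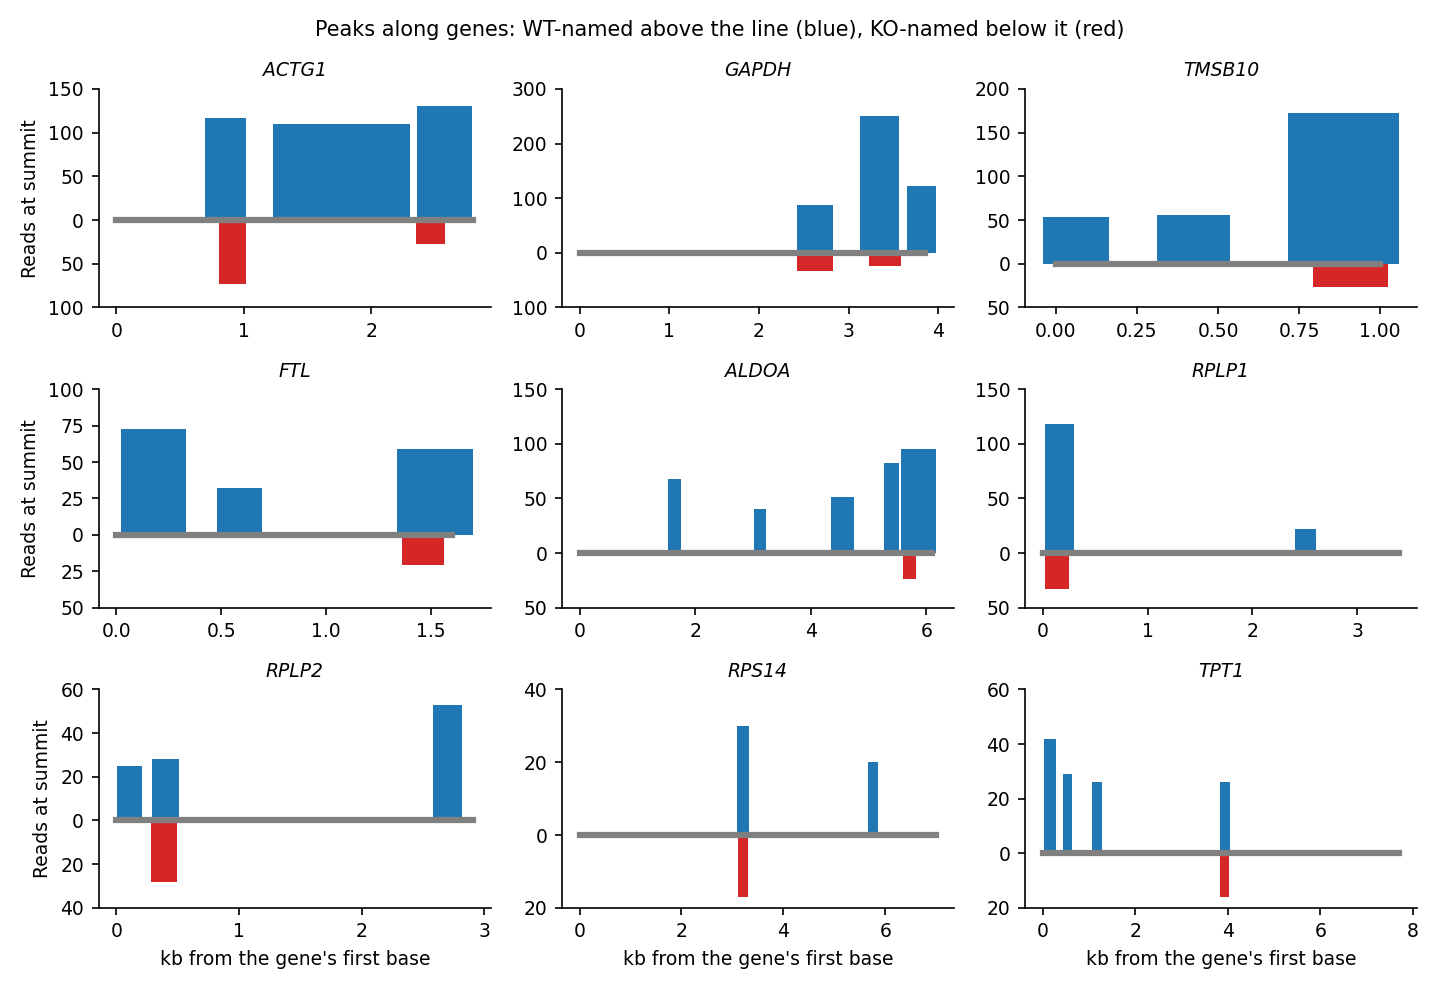
Peaks along 9 protein-coding genes, drawn by distance from the first base of the gene in kb, with bar height showing reads at the summit (WT-named upward in blue, KO-named downward in red; the gray line is the gene span). Within the KO-named list the upstream shared site of ACTG1 and GAPDH is the deeper one, within the WT-named list the downstream one, and in RPLP2 the middle peak alone is shared.

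Several shared sites were narrow stacks in which all or nearly all reads within 10000 bp lay at the summit. SYCP2L, which encodes a protein of the meiotic synaptonemal complex, held 4233 reads in the WT-named and 9 in the KO-named list at the same bases of chromosome 6, 10887604 to 10887803, a ratio of 470 (interval 248 to 1029). ZNF713, a zinc finger gene, was the site with more KO-named reads, 38 and 65, a ratio of 0.585 (interval 0.381 to 0.886), at chromosome 7, 55887858 to 55888058. These sites, of like shape, marked the ends of the whole range. FZD6, a Wnt receptor gene, held 73 and 7 reads (10.4) on the minus strand. The start table lacks the strand of FZD6, and LOC105369147 spans the same summit, so the RNA at this site is not settled. LOC105377166, a lncRNA gene on the opposite strand to its peak, held 329 and 19 (17.3). CNTN3 spans the same summit, so the RNA at this site is not settled either. SNHG29, a snoRNA host lncRNA that was no such stack, with 42.3% (KO-named) and 40.5% (WT-named) of its window reads at the summit, held 96 and 11 (8.73).

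Outside annotated genes 4 of the 5 shared sites had all reads of their window at the summit in both lists; at 32916252 on chromosome 2 the shares were 68.8% in the KO-named and 75.2% in the WT-named list. Of those given here, the sites held 406 and 39 reads (chromosome 2, 117012451), 94 and 11 (chromosome 2, 32916252), 19 and 4 (chromosome 4, 55328159) and 6 and 5 (chromosome 7, 145997339). Over all 5 sites the ratios ran from 1.2 to 55.6, and the interval of the last site named, 0.305 to 4.97, covered 1.

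Pseudogenes copy expressed genes, so reads placed there may come from the parent RNA. MTRNR2L1, a nuclear copy of part of mitochondrial RNR2, held 851 and 13 reads, a ratio of 65.5 (interval 38.1 to 123). LOC102723945 held 377 and 171, a ratio of 2.20 (interval 1.84 to 2.66), and was the eighth-ranked peak of the KO-named list. RPL27AP6 (42 and 13), RPS11P5 (33 and 11) and GAPDHP40 (21 and 15) had ratios of 3.23, 3.0 and 1.40. The last 3 are copies of ribosomal protein and GAPDH genes.

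**Figure D4:**
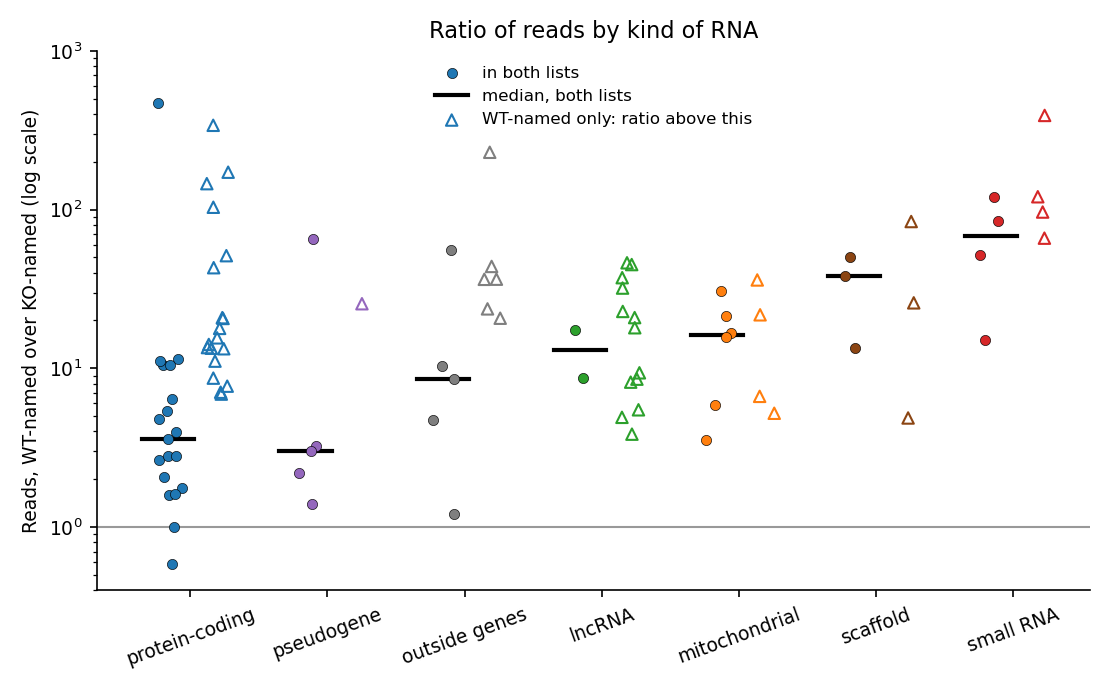
Ratio of WT-named to KO-named reads on a log axis by kind of RNA: filled points are the 44 shared sites, bars their medians, and open triangles the limits above which the ratio of the 50 WT-named peaks with at least 100 reads and no partner would lie. Medians ran from 3.0 for pseudogenes to 67.9 for small RNA genes. The triangles were picked for at least 100 reads, while the medians cover shared sites of any depth, so the triangles cannot be set against the medians.

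The 2 KO-named peaks without a partner lay beside WT-named peaks. ND2, a mitochondrial gene for a subunit of respiratory complex I, held 439 reads at bases 4419 to 4621, 1059 bp from the WT-named RNR2 peak with 10515 reads. In the WT-named list the mitochondrial window around that peak held 87958 reads, and a WT-named peak at ND2 against that background would have needed 1943 reads, so a ratio up to 4.43 would have left no WT-named peak. RPS2P46, a pseudogene of ribosomal protein RPS2, held 8 reads on chromosome 17, 19446311 to 19446510, and a WT-named peak with 16 reads lay 159 bp away in the same pseudogene.

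The 2058 WT-named peaks without a partner were mostly shallow, with a median of 11 reads. For such a peak only a limit can be given: the fewest KO-named reads that would have reached the lowest −log10 p of the KO-named list on that strand (7.59 on the plus strand and 9.73 on the minus strand), with the same share of reads in the peak. For 368 of them (17.9%) even equal reads in both lists would have given no KO-named peak. For 1809 (87.9%) the limit was at most 3.58, the median of the shared protein-coding sites, so the lack of a KO-named peak does not set them apart from those. For 80 (3.89%) the limit exceeded the overall median of 7.48, among them 40 of 1678 in protein-coding genes (2.38%), 15 of 133 in lncRNA genes (11.3%), 13 of 98 outside genes (13.3%) and 5 of 10 in small RNA genes (50%). The limit rises with WT-named reads, and the median of 7.48 covers only sites called in the KO-named list. A limit above it therefore does not set a peak apart from the shared sites. The part of depth in these class shares was not tested. These limits hold only if the share of reads in the peak was the same in both lists. At shared sites it could differ either way, as in RPLP2 (77.8% KO-named, 23.0% WT-named) and DANCR (84.2% and 99.4%).

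The 10 WT-named peaks with at least 300 reads and no partner included 4 small RNAs of the Cajal body and nucleolus, which guide the modification of other RNAs. SCARNA28 held 1957 reads (ratio above 391), SCARNA17 722 (above 120), SCARNA9 482 (above 96.4) and SNORD133 330 (above 66). None of these had a KO-named peak, while RPPH1, with 3718 WT-named reads, had 246 KO-named ones. The other deep sites were narrow stacks on the opposite strand of ZNF773 (2035 reads, ratio above 339), of DNM3 (873, above 146) and of LOC124901446 (859, above 172), a stack in ARHGAP39 (620, above 103), a site outside genes on chromosome 15 at 45228535 (1376, above 229) and a scaffold site (588, above 84). Apart from the scaffold site they resembled SYCP2L in shape, which had a KO-named peak with 9 reads.

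Among messenger RNAs without a partner at that site, KRT18, the keratin that pairs with KRT8, held 125 WT-named reads (ratio above 20.8) and ACTB, cytoplasmic beta actin, 171 (above 15.5). KRT19 had a further site with 146 reads (above 13.3) and KRT8 one with 135 (above 13.5). A further GAPDH site with 122 reads had a ratio above 11.1, and a further ACTG1 site with 110 reads one above 6.88. Each of the KRT19, KRT8, GAPDH and ACTG1 limits lay above the ratios at the shared sites of its own gene, but in KRT8, GAPDH and ACTG1 within the interval of the highest of them. The remaining KRT8 site, with 104 reads, had a limit of 8.67, below the 11.4 of the shared one. The colon markers with the highest limits were PHGR1 (40 reads, above 8.0), EPCAM, an epithelial adhesion protein (38 reads, above 7.60), and TFF3, a peptide secreted by goblet cells (68 reads, above 7.56).

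The order of the shared sites also differed between the lists. Ranked by reads among the 44 shared sites alone, the scaffold site and both RNR2 sites took ranks 1 to 3 in the same order in both. Of the 19 protein-coding sites, 15 ranked higher in the KO-named list and 4 lower, with a median gain of 9.5 places. Of the 4 small RNA sites, RPPH1 ranked 2 places higher and the other 3 lower. Over all 44 sites 24 ranked higher in the KO-named list, 16 lower and 4 the same.

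RPLP2 stood 40th by WT-named reads and 14th by KO-named reads, ZNF713 35th and 9.5th, and the 5′ ACTG1 site 24th and 8th, where a decimal marks a tie. In the other direction SYCP2L stood 4th and 38th, TERC 13th and 38th, MTRNR2L1 11th and 31.5th, DANCR 7th and 26.5th and RMRP 8th and 20th. The ranks correlated across the 44 sites with a Spearman coefficient of 0.496, and with 0.292 when ranked by deposited fold. The points share their libraries and are not independent replicates. Within the whole WT-named list the partners had a median rank of 58.75, 7 of its 10 leading peaks had a partner, and the shallowest partner ranked 1772.

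**Figure D5:**
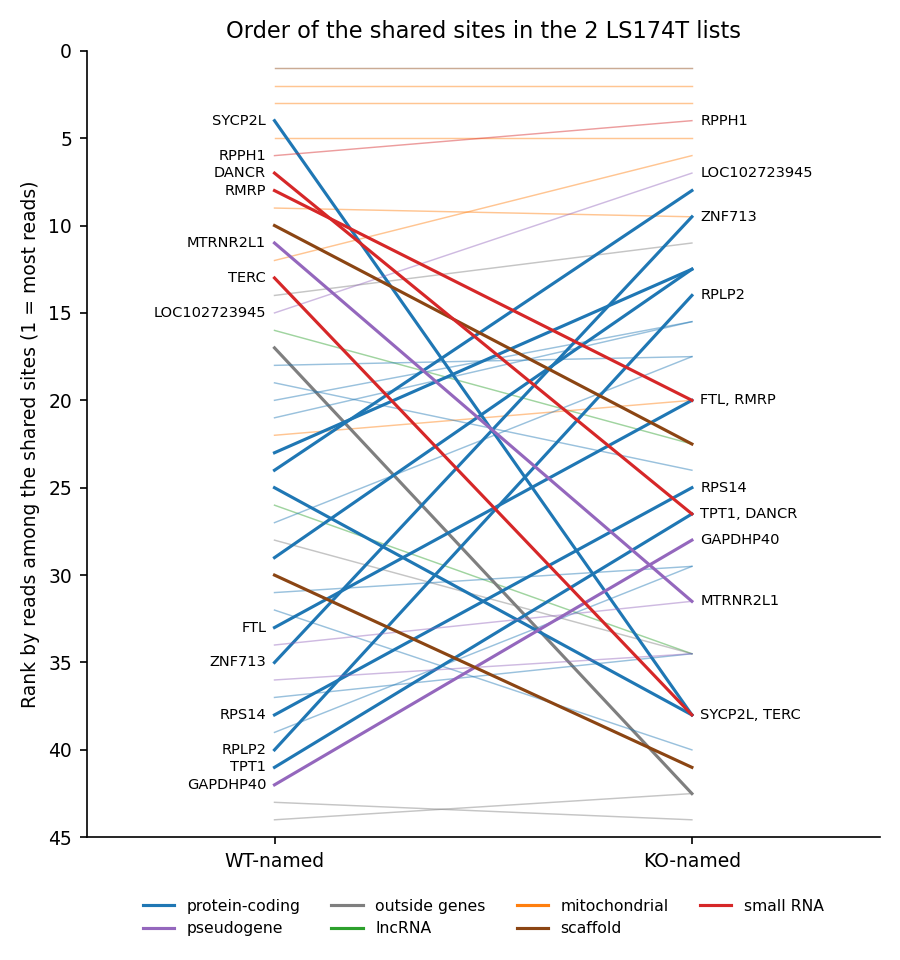
Rank by reads of each of the 44 shared sites (1 is most reads) in the WT-named list on the left and the KO-named list on the right, colored by kind of RNA, with thick lines for sites that differ by 10 places or more. RPLP2, ZNF713, RPS14, TPT1 and FTL stand higher in the KO-named list, and SYCP2L, TERC, DANCR, RMRP and MTRNR2L1 lower.

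Shared peaks stood at nearly the same bases. The summits lay a median of 7 bp apart, within 10 bp at 26 of 44 sites and within 50 bp at 34, and RNR1 had the largest shift, 184 bp. The KO-named peak lay wholly inside the WT-named one at 31 sites and was as wide or narrower at 41, with median widths of 209 and 293.5 bp. Whether width moved with reads was not tested.

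The deposited list from HepG2, a human hepatocellular carcinoma line whose IPs were made against an HA tag, held most of the same sites. It had a peak at 36 of the 44 shared sites (81.8%, interval 67.3 to 91.8%) and at 564 of the 2058 WT-named peaks without a partner (27.4%, interval 25.5 to 29.4%). At WT-named peaks of at least 100 reads the shares were 25 of 26 with a partner (96.2%, interval 80.4 to 99.9%) and 41 of 50 without (82%, interval 68.6 to 91.4%), so the gap was smaller among deep peaks and these intervals overlap. The 8 shared sites without a HepG2 peak included those in RPLP2, RPS14, TPT1, FTL and MTRNR2L1, at the upstream GAPDH site and at the chromosome 7 site. SCARNA17 and SCARNA9 were the WT-named sites of at least 300 reads that neither the KO-named nor the HepG2 list held.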

How the data were processed

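The lists hold MACS2 peaks on hg38, with cutadapt and BWA named as the other tools, per the submitters' processing notes. Tool versions are not given in the sources used here. Peaks had been called per strand, per the peak names in the files. The values the authors deposited are a score per peak, a fold over local background and −log10 p-values and q-values; they were used within a list only. Reads n at the summit were solved from fold = (n + 1) / (λ + 1) and the Poisson p, with λ = 0.02 times the whole reads in 10000 bp, tested on simulated data. A unique solution was found for 2102 of 2103 WT-named and all 46 KO-named peaks. Reads may include PCR copies. Peaks were assigned by summit, without strand, to RefSeq gene spans (GRCh38.p14), small RNAs first, then pseudogenes, then the shortest gene; exons and UTRs were not used here. Strand was known for genes in the RefSeq start table alone. Ratios carry conditional binomial 95% intervals and shares Clopper-Pearson ones; no test was run, since each list is 1 sample. Named genes were every KO-named peak, the 5 deepest WT-named peaks of each class with and without a partner, NR1I2 and gene list members; start sequences and other genes named were chosen after their values were seen. A few shared sites are not reported here. The members and lists were chosen with earlier results of these data known. Python 3.11.15, pandas 2.3.3 and scipy 1.17.1 were used.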

Additional observations from a re-analysis of the deposited data

How the results depend on the processing

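Of 98 alternative values, 83 kept their direction and stayed within 1.5 times the main value or, for class shares, within its counting interval, among them the counts of shared peaks under every overlap rule and filter tried. As shares of each list's reads the median ratio was 0.220 over all sites, 0.105 in protein-coding genes, 0.384 in lncRNA genes, 0.0884 in pseudogenes, 0.477 on the mitochondrial genome and 0.252 outside genes, all turned below 1 by the larger WT-named sum, and 2.00 in small RNAs and 1.13 on scaffolds. With genes assigned on the peak's strand, lncRNA genes held 3.52% and sites outside genes 8.08% of WT-named peaks. Sites outside genes held 3.96% with a −log10 q of at least 5 and 3.77% with at least 10 reads, where mitochondrial sites held 1.07%. In the KO-named list sites outside genes held 4.76% and 5.41% under these filters against 10.9%, within the interval of that share. The rank correlation was 0.292 by fold, and with summits within 50 bp 11 of the 27 deepest WT-named peaks had a partner; the cause was not tested. No paired analysis was possible because each LS174T list is 1 sample and no list carries values per replicate. The fewest reads behind a peak were 4 in the KO-named and 3 in the WT-named list; how far depth limits the KO-named list was not tested.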

Other observations

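Some long noncoding RNAs were deep in the WT-named list and without a KO-named peak. They were picked out after their values were seen. Of all WT-named peaks with 100 to 299 reads, 9 of 49 had a partner, and 0 of 13 in lncRNA genes. A lack of a partner was thus usual at this depth. MALAT1, a nuclear speckle RNA, had WT-named sites with 139, 115, 108 and 100 reads, and NEAT1, the scaffold of paraspeckles, a site with 103. GAS5, a snoRNA host RNA, held 111 reads. Because these genes carry many reads in the surrounding window, the limits on their ratios were lower than for narrow stacks of like depth, above 3.85 to 8.18 in MALAT1, 9.36 in NEAT1 and 8.54 in GAS5. These limits lie near the ratio of 8.73 measured in SNHG29, another snoRNA host RNA, which had a KO-named peak with 11 reads.

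Messenger RNAs of the calcium-binding protein S100A6 (113 and 107 reads at its sites, ratios above 14.1 and 13.4) and of the elongation factor EEF2 (108 and 106 reads, above 7.71 and 7.07) also had no KO-named peak. Of all WT-named peaks in protein-coding genes with 100 to 299 reads, 7 of 22 had a partner, so most lacked one. ACTG1 had one at sites of like WT-named depth, 130 and 117 reads, but none at a further site with 110. GAPDH had one at sites with 251 and 87 reads, but none at a further site with 122.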
